A study of Mus musculus with 6 samples.

Results

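The endothelial markers Pecam1, Cdh5, Kdr, Flt1, Tek, Eng, Emcn, Plvap, Esam and Egfl7 were followed in cultures of mouse pancreatic acini. They were taken by gene name, 10 of the 56953 genes of the count table. Endothelial cells line blood and lymphatic vessels and are held together by adhesion proteins that are largely their own. They read the vascular endothelial growth factors (VEGFs) and the angiopoietins through dedicated receptor tyrosine kinases. In the pancreas a dense capillary bed, whose fenestrae are closed by diaphragms, runs around acini and islets, so a preparation of acini can carry pieces of it.

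The libraries were bulk RNA-seq of mouse pancreatic acini, the enzyme-secreting units of the exocrine pancreas, after 3 days in an explant assay in which acini turn into duct-like structures. All cultures were embedded in Matrigel and fed Waymouth medium with 10% fetal bovine serum, trypsin inhibitor and 10 µg/ml dexamethasone. WT libraries came from Dkk3 wild-type mice labelled 10 and 11 weeks old, DD libraries from Dkk3-null mice labelled 12 and 13 weeks old, and DD + rDKK3 libraries from Dkk3-null mice labelled 14 and 15 weeks old whose acini received the recombinant soluble protein. Each group held 2 libraries. The labelled ages rise evenly from library to library and may not be recorded ages. Taken as given, age cannot be told apart from group. Not all libraries carry the same label of sex, and no term for sex or age was fitted. DKK3 is a secreted glycoprotein of the Dickkopf family, and the null allele, in which exon 2 was replaced, is present in every cell of the animal. The labels give each library an age but name no animal or culture, so p-values measure only the spread between these libraries, which may be technical.

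The libraries held 12018473 to 19750401 counts on genes. Dkk3 itself had 10 and 1 counts in WT, 11 and 9 in DD, with 5 in each DD + rDKK3 library, so its level did not separate the genotypes, and groups are named as labelled. The acinar label was met: the summed level of 12 acinar markers was 98058 to 170188 CPM (counts scaled to library depth by TMM). The 10 endothelial markers summed to 181 to 296 CPM, and all 10 passed the filter on low counts that left 14738 genes for testing. In bulk RNA, fewer endothelial cells and less RNA per endothelial cell cannot be told apart.

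Levels of different genes were set side by side only per kilobase of exon. On that scale, as a mean over the 6 libraries, Plvap was highest at 22.2 CPM per kb. Esam followed at 7.56, Eng at 6.08, Emcn at 5.26, Cdh5 at 4.75, Kdr at 4.26, Flt1 at 3.15, Pecam1 at 2.95 and Egfl7 at 2.11 CPM per kb. Tek was lowest at 0.525 CPM per kb. Plvap lay above its neighbour Esam, and Egfl7 above Tek, with no overlap of their ranges over the libraries. All other neighbours in this order overlapped over the libraries, although Kdr was above Flt1 in each of the 6. These means carry the annotation's uncertainty about which exons are used: the median over the members was 4.51 CPM per kb with the exons of basic transcripts and 2.87 with those of all transcripts. The order depended on it too. Divided by the length of the longest transcript, mean Flt1 was at 5.08 CPM per kb and Kdr at 4.29, the reverse of their order above.

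**Figure D1:**
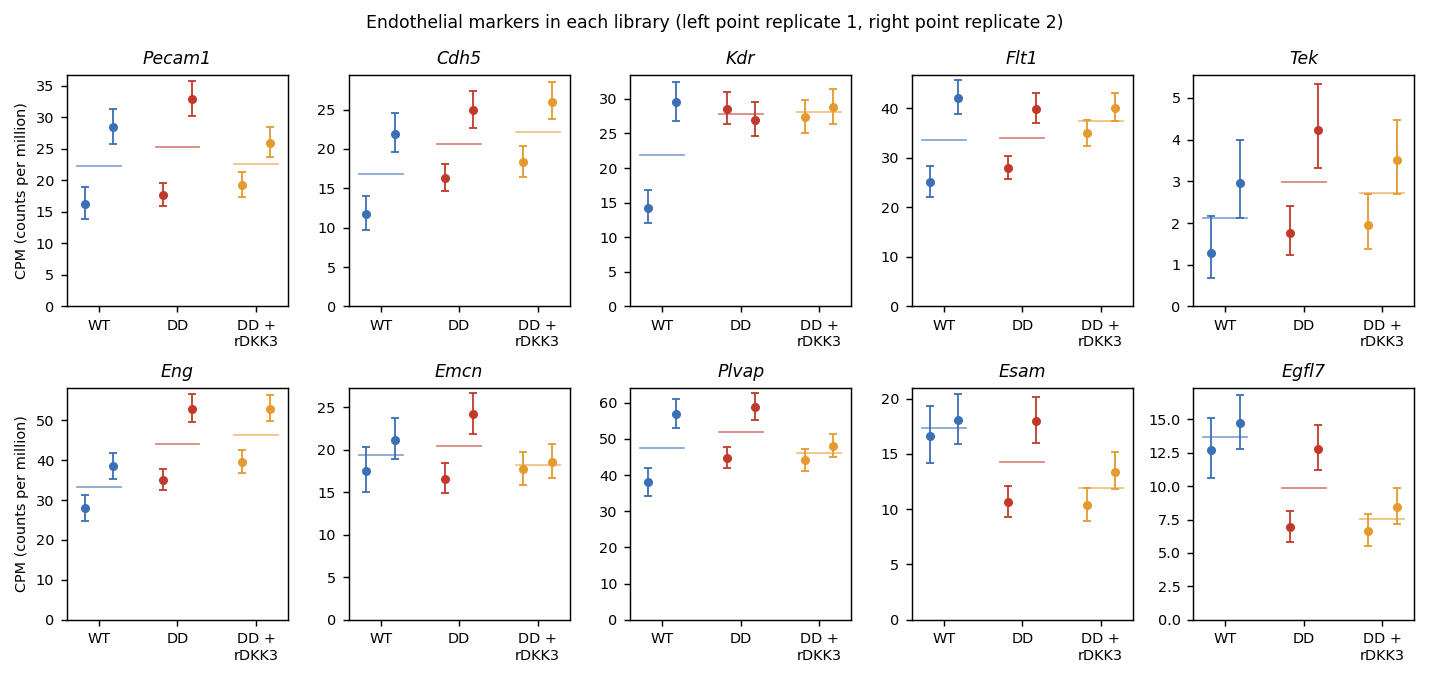
Level of each of the 10 endothelial markers (CPM, linear axis from 0) in the 6 libraries, WT in blue, DD in red and DD + rDKK3 in orange, with replicate 1 to the left of replicate 2. Bars are exact 95% Poisson intervals, which cover counting error only, and horizontal lines are group means. The first WT library is the lowest for 7 of the genes, and Esam and Egfl7 are the genes whose DD + rDKK3 libraries both lie under both WT libraries.

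The first members are the proteins of the endothelial junction. Pecam1 (chromosome 11, 106545043 to 106641454, minus strand, GRCm39) encodes the adhesion molecule CD31. Its level was 16.3 and 28.4 CPM in WT, 17.7 and 32.9 in DD and, with rDKK3 added, 19.2 and 26.0. The second library was higher in every group and the groups overlapped. The edgeR quasi-likelihood fit gave a log2 fold change of 0.17 for DD against WT (SE 0.355, adjusted p = 0.872). That of DD + rDKK3 was -0.16 against DD and 0.0070 against WT, with adjusted p of 0.9999 and 0.9935 in edgeR.

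Cdh5 (chromosome 8, 104828257 to 104871143, plus strand) encodes VE-cadherin, the cadherin of endothelial adherens junctions. It stood at 11.7 and 21.9 CPM in WT, 16.3 and 24.9 in DD and, with rDKK3 added, 18.3 and 26.0. As with Pecam1, the second library was the higher in each group and the ranges overlapped. The log2 fold change of DD against WT was 0.28 (SE 0.339, adjusted p = 0.756, edgeR).

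Esam (chromosome 9, 37439374 to 37449615, plus strand), an adhesion molecule of endothelial tight junctions and platelets, ran differently. It was at 16.6 and 18.1 CPM in WT, 10.6 and 18.0 in DD and, with rDKK3 added, 10.4 and 13.4. Both DD + rDKK3 libraries lay under both WT libraries, while DD spanned the range. The log2 fold change was -0.28 for DD against WT (SE 0.272, adjusted p = 0.701) and -0.55 for DD + rDKK3 against WT (SE 0.273, adjusted p = 0.354), neither past the edgeR threshold.

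Kdr and Flt1 encode the receptors VEGFR2 and VEGFR1. VEGFR2 carries most of the mitogenic signal, whereas VEGFR1 binds VEGF-A tightly and has a secreted form that acts as a trap. Kdr (chromosome 5, 76093487 to 76139118, minus strand) was at 14.2 and 29.6 CPM in WT, 28.6 and 27.0 in DD and, with rDKK3 added, 27.4 and 28.8. Only the first WT library stood apart: its exact 95% Poisson interval was 12.0 to 16.8 CPM, and the other libraries lay within 27.0 to 29.6 CPM. The log2 fold change of DD against WT was 0.34 (SE 0.297, adjusted p = 0.675, edgeR), and it was -0.07 without the first WT library.

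Flt1 (chromosome 5, 147498414 to 147662821, minus strand) was at 25.1 and 42.1 CPM in WT, 27.9 and 39.9 in DD and, with rDKK3 added, 34.9 and 40.1. The first library was lower in each group and all groups overlapped. DD against WT gave a log2 fold change of 0.01 (SE 0.271, adjusted p = 0.994, edgeR), with a 95% interval from -0.62 to 0.64.

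Tek (chromosome 4, 94627526 to 94763213, plus strand) encodes TIE2, the angiopoietin receptor, and was the least abundant member, with 13 to 72 counts a library. It was at 1.28 and 2.95 CPM in WT, 1.75 and 4.23 in DD and, with rDKK3 added, 1.95 and 3.50. The second library was the higher in every group. Tek had the widest intervals, from -0.86 to 1.79 on the log2 scale for DD against WT, so the direction of its difference was not resolved with these libraries.

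Eng (chromosome 2, 32536607 to 32572681, plus strand) encodes endoglin, the co-receptor for BMP9 and TGF-β family ligands that is mutated in hereditary haemorrhagic telangiectasia. It was at 28.0 and 38.5 CPM in WT, 35.1 and 53.0 in DD and, with rDKK3 added, 39.7 and 53.0. Both DD + rDKK3 libraries were above both WT libraries, and DD overlapped with each of the other groups. The log2 fold change was 0.40 for DD against WT (SE 0.257, adjusted p = 0.606) and 0.48 for DD + rDKK3 against WT (SE 0.257, adjusted p = 0.375), neither past the edgeR threshold. The former was 0.07 without the second DD library, 0.21 without the first WT library, 0.66 without the second WT library and 0.69 without the first DD library.

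Emcn and Plvap belong to the vessel surface. Emcn (chromosome 3, 137046828 to 137137946, plus strand) encodes endomucin, a sialomucin of capillaries and veins, and was at 17.5 and 21.2 CPM in WT, 16.6 and 24.2 in DD and, with rDKK3 added, 17.7 and 18.6. Its range over the 6 libraries was the narrowest of the members, 1.46-fold. Plvap (chromosome 8, 71950409 to 71964396, minus strand) encodes the protein of the diaphragms that close fenestrae and caveolae. It was at 38.0 and 56.8 CPM in WT, 44.8 and 58.9 in DD and, with rDKK3 added, 44.2 and 48.0. For both genes the groups overlapped, with edgeR log2 fold changes of 0.07 (Emcn, adjusted p = 0.912) and 0.12 (Plvap, adjusted p = 0.842) for DD against WT.

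Egfl7 (chromosome 2, 26470026 to 26483132, plus strand) encodes a protein that endothelial cells secrete into their matrix, and an intron of the gene hosts the miR-126 hairpin. It was at 12.7 and 14.7 CPM in WT, 6.91 and 12.8 in DD and, with rDKK3 added, 6.65 and 8.44. Both DD + rDKK3 libraries lay under both WT libraries, and the second DD library lay among those of WT. DD + rDKK3 against WT gave the lowest fold change of any member, -0.86 on the log2 scale (SE 0.307), with a 95% interval from -1.57 to -0.14. Its unadjusted edgeR p of 0.0244 became 0.321 after adjustment over all genes. DD against WT gave -0.48 (SE 0.304, adjusted p = 0.606, edgeR), which was -0.07 without the first DD library and -0.99 without the second. Of the genes annotated on the same strand that overlap Egfl7, Mir126a had 2 counts and Gm20532 had 0 over all libraries. Whether reads shared with these genes were left out of the Egfl7 counts was not tested.

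For 6 of the 10 members a RefSeq table held promoter sequence, of which the 250 bases before the start given by that table were placed on GRCm39 by exact match. This start need not be that of the annotation used here: the windows of Kdr, Eng and Egfl7 ended 3, 67 and 124 bases from the start of the canonical transcript, and that of Egfl7 lies inside the span of the gene. Pecam1, Cdh5, Plvap and Esam had no entry. Searched on both strands, AGGAAG, the core of many ETS-factor sites, was held by 4 of these 6 (Flt1, Eng, Emcn and Egfl7) and by 29.5% of all 32851 promoters of the table. The GATA cores AGATAA or TGATAA were held by 1 of the 6, Egfl7, and by 16.6% of all promoters. ETS and GATA factors are known regulators of endothelial genes, and a match is a description of letters only. Egfl7 and Eng are shown, 5′ to 3′ on the gene's strand, as the members with the lowest and the highest fold change of DD + rDKK3 against WT, and Kdr as the member that was low in the first WT library alone. This choice was made after their values were seen. Capitals mark the matches, and a match on the opposite strand reads as its reverse complement. They lie at chr2:26473627-26473876 (plus strand, Egfl7), chr2:32536357-32536606 (plus strand, Eng) and chr5:76139116-76139365 (minus strand, Kdr).
Egfl7: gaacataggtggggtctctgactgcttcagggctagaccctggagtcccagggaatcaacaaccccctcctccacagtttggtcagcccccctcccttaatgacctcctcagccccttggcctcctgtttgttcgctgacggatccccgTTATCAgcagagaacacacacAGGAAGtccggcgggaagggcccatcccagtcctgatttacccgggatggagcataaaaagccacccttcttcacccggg
Eng: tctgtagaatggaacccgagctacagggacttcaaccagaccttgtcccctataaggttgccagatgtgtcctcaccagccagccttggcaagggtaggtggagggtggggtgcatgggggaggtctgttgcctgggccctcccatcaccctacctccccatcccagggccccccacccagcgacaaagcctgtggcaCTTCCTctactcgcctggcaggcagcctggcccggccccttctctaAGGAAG
Kdr: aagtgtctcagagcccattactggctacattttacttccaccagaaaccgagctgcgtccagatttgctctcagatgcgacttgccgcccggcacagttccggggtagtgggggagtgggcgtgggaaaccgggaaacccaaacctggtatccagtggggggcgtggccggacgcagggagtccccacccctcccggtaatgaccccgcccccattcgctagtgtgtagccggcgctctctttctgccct

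Egfl7 held 1 match to each motif, Eng held 2 matches to AGGAAG, and the 250 bases before Kdr held neither. Egfl7 and Eng were picked for their opposite fold changes of DD + rDKK3 against WT, so no relation between matches and direction can be read from them.

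The first comparison asked whether loss of DKK3 went with a different endothelial signal in the cultures. Of the 10 members, 0 were called in DD against WT (edgeR quasi-likelihood test, adjusted p under 0.05), where 0.0407% of all 14738 genes tested were called, and 0 had an unadjusted p under 0.05 against 8.26% of all genes. DESeq2 and limma-voom also called 0. Of the members, 8 had a positive fold change and 2, Esam and Egfl7, a negative one. Their median was 0.145 on the log2 scale against 0.02 over all genes tested. It was -0.10 without the first WT library and -0.25 without the second DD library. For 0 of 10 members the DD and WT libraries did not overlap, against 37.8% of all genes. With 2 libraries a group, the 95% intervals of single members reached as low as -1.19 (Egfl7) and as high as 1.79 (Tek). They differed in width, from -0.43 to 0.58 for Emcn, the narrowest, and from -0.86 to 1.79 for Tek, the widest. Each of them held 0.

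The second comparison asked whether the added protein went with a change in DD acini. Of the 10 members, 0 were called in DD + rDKK3 against DD (edgeR, adjusted p = 0.9999 for each), as were 0% of all genes, and 0 had an unadjusted p under 0.05 against 1.98% of all genes. DESeq2 and limma-voom called 0 members too. Fold changes ran from -0.38 (Egfl7) to 0.15 (Flt1) on the log2 scale, with 4 positive and 6 negative, and a median of -0.14 against -0.0028 over all genes. The median was 0.26 without the second DD library and 0.03 without the first DD + rDKK3 library. No member had groups that did not overlap, against 29.5% of all genes.

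DD + rDKK3 was also set against WT, a contrast that shares its libraries with both others and in which genotype, protein and labelled age differ together. Again 0 of 10 members were called by edgeR, against 0.0475% of all genes, and limma-voom called 0. DESeq2 called 0 of the 3 members to which it gave an adjusted p, and left that of 7 undefined, Egfl7 and Esam among them. Egfl7 was the 1 member with an unadjusted p under 0.05, against 15.3% of all genes. Groups did not overlap for 3 members, against 55% of all genes. Eng was the 1 higher, against 27.9% of all genes, and Esam and Egfl7 the 2 lower, against 27.1%. The median log2 fold change of the members was 0.08, with 6 positive and 4 negative, against 0.02 over all genes. It was -0.18 without the first WT library, -0.11 without the second DD + rDKK3 library and 0.53 without the second WT library.

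**Figure D2:**
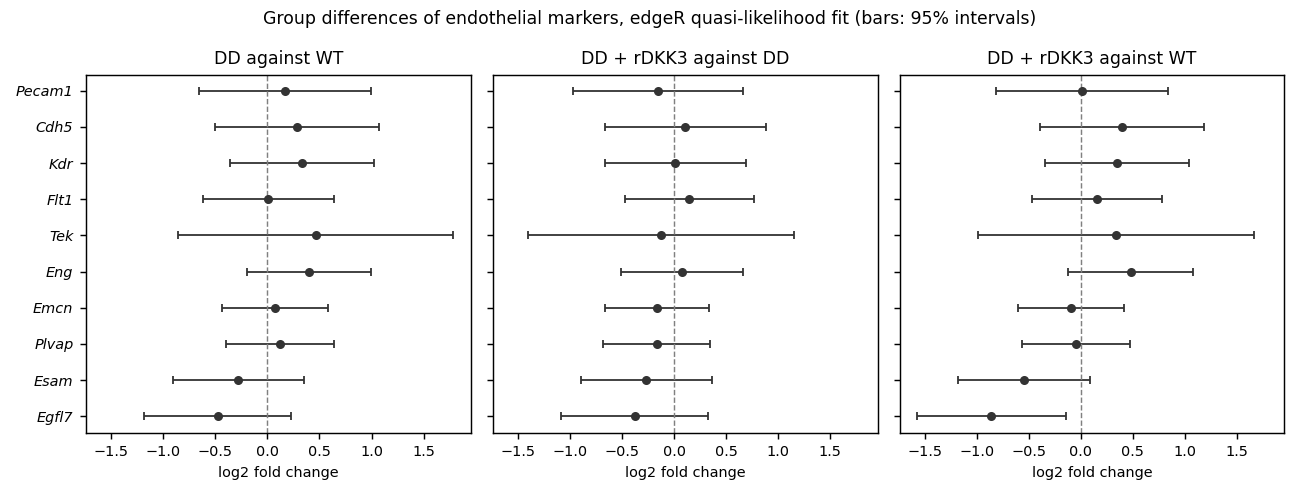
Log2 fold change of each endothelial marker in the 3 group contrasts, from the edgeR quasi-likelihood fit, with 95% intervals as bars and a dashed line at 0. All intervals cross 0 except that of Egfl7 in DD + rDKK3 against WT (-1.57 to -0.14), which did not pass the adjustment over all genes (adjusted p = 0.321).

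Libraries of the same group differed from each other in the endothelial signal. In WT all 10 members were higher in the second library than in the first, by a median of 0.66 on the log2 scale, from 0.12 for Esam to 1.14 for Tek. In DD 9 of 10 were higher in the second library, by a median of 0.60, with Kdr at -0.08. In DD + rDKK3 all 10 were, by a median of 0.35. Over all genes tested the medians of the same differences were 0.0061, -0.022 and 0.0025. The 10th to 90th percentiles over all genes ran from -0.54 to 0.72 in WT, from -0.44 to 0.73 in DD and from -0.35 to 0.54 in DD + rDKK3.

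Summed over the members, the level was 181 and 274 CPM in WT, 206 and 296 in DD and, with rDKK3 added, 220 and 266. The 6 libraries thus spanned 1.63-fold, the second library was the higher in each group, and the groups overlapped.

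Markers of other cell types moved between the same libraries. The 12 fibroblast and stellate markers, led by the collagen genes Col1a1 and Col1a2, summed to 124 and 50.1 CPM in WT, 76.7 and 885 in DD and, with rDKK3 added, 179 and 1007, a 20.1-fold range. None was at 0, and the second Dkk3-null libraries stood far above the others. In WT the fibroblast sum was lower in the second library, where the endothelial sum was higher. The 10 mural cell markers, genes of the pericytes and smooth muscle that wrap vessels such as Rgs5 and Pdgfrb, summed to 18.4 and 30.2 CPM in WT, 17.9 and 46.6 in DD and, with rDKK3 added, 21.8 and 49.0. As with the endothelial sum, the mural sum was higher in the second library of every group. Single genes differed: Pdgfrb was at 3.64 and 19.6 CPM in DD and at 6.02 and 25.1 with rDKK3 added, while Notch3 was at 4.96 and 3.55 in the latter.

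The 10 macrophage markers, among them Lyz2 and Cd14, summed to 254 and 196 CPM in WT, 144 and 345 in DD and, with rDKK3 added, 158 and 257. The 5 mesothelial markers, led by Msln with Wt1 next, ran from 8.43 to 34.9 CPM, with the highest sum in the second DD library. Of 11 haematopoietic and platelet markers, Gp1bb, Gp9 and Hba-a1 were at 0 in all libraries, and the sum ran from 4.59 to 69.7 CPM. The platelet chemokine gene Pf4 was highest, at 45.6 and 40.7 CPM, in the second DD and the first WT library, those with the highest and the lowest endothelial sum, and at 4.12 to 18.0 CPM in the others. The macrophage marker C1qa was also highest in the second DD and the first WT library, at 22.8 and 19.5 CPM. It was at 18.3 CPM in the second DD + rDKK3 library. Which cells gave the Pf4 reads was not tested. Ppbp was at 27.4 CPM in the first WT library and at 3.00 CPM or less elsewhere. Esam is also a platelet gene, and whether platelets contributed to its reads was not tested. Eng was highest, at 53.0 CPM in each, in the second DD and second DD + rDKK3 library, those with the highest fibroblast sums. In WT the library with the higher fibroblast sum held the lower Eng level. Whether other cells contributed to the reads of Eng or of other members was not tested.

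The acinar sum was highest in the first WT library and lowest in the second DD library, the libraries with the lowest and the highest endothelial sum. Its leading genes were Ctrb1 and Prss2. The 10 ductal markers, led by Krt18 and Spp1, ranged 1.43-fold and the 8 islet markers, led by Iapp and Ins2, 1.85-fold. Of the 66 tested genes of these 8 lists, edgeR called 0 in any contrast, with 9 at an unadjusted p under 0.05 in DD against WT (8.26% of all genes), 2 in DD + rDKK3 against DD (1.98%) and 19 in DD + rDKK3 against WT (15.3%). Their part in the endothelial values was not tested.

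**Figure D3:**
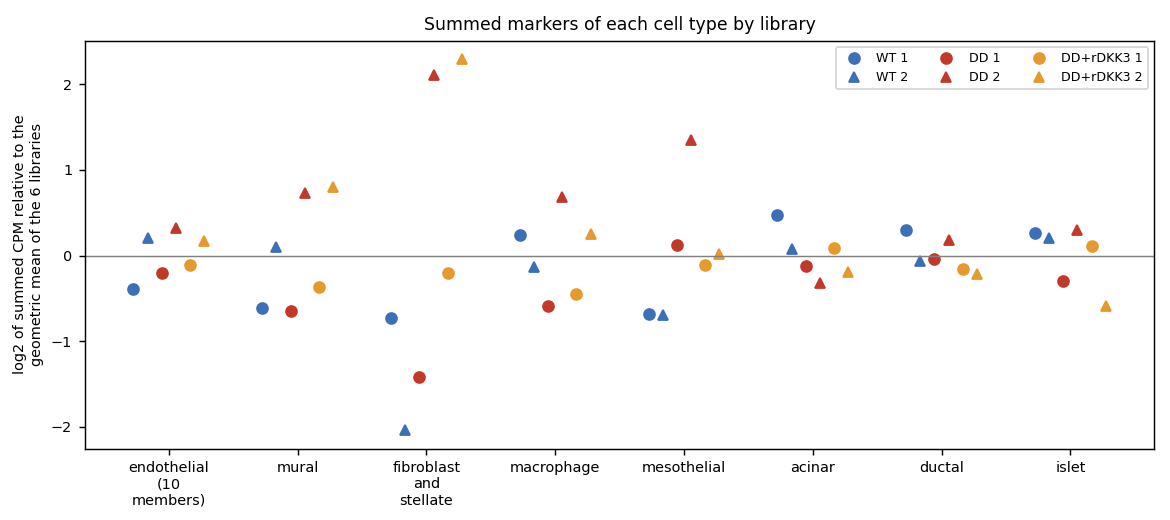
Summed CPM of the markers of each cell type in each library, as log2 relative to the geometric mean of the 6 libraries. Colours mark the groups, circles replicate 1 and triangles replicate 2. The endothelial sum ranged 1.63-fold, the fibroblast and stellate sum 20.1-fold with the second libraries of DD and DD + rDKK3 highest, and the acinar sum 1.74-fold with the first WT library highest.

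Because the members moved together between libraries, the share of each in the summed CPM of all 10 was also computed. The shares add to 100% in each library, so a higher share of some members lowers those of others, and they were chosen after the values were seen and carry no test. Egfl7 made up 6.99% and 5.35% of the sum in WT, 3.35% and 4.33% in DD and, with rDKK3 added, 3.02% and 3.17%. Esam made up 9.15% and 6.58% in WT, 5.16% and 6.08% in DD and, with rDKK3 added, 4.70% and 5.04%. Eng made up 15.4% and 14.0% in WT, 17.0% and 17.9% in DD and, with rDKK3 added, 18.0% and 19.9%. For these 3 members the shares of the groups did not overlap in any contrast, though DD and DD + rDKK3 lay close, at 17.9% and 18.0% for the nearest pair of Eng.

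DD and WT shares did not overlap for 4 of the 10 members (Eng higher, Flt1, Esam and Egfl7 lower), against 17.6% of all genes when each was divided by the same sum. DD + rDKK3 and DD shares did not overlap for 4 (Flt1, Eng, Esam and Egfl7), against 13.1% of all genes. DD + rDKK3 and WT shares did not overlap for 6 (Cdh5, Kdr, Eng, Plvap, Esam and Egfl7), against 29.6% of all genes. These shares of all genes are not a like background. Dividing by the members' sum takes out the library difference that the members have in common and adds it to other genes. Undivided, the groups did not overlap for 0, 0 and 3 members, against 37.8%, 29.5% and 55% of all genes. Set against Pecam1 alone, Egfl7 stood at a ratio of 0.777 and 0.516 in WT, 0.390 and 0.390 in DD and, with rDKK3 added, 0.346 and 0.325. Both WT ratios were above those of the 4 Dkk3-null libraries. The ratio of Esam to Pecam1 separated likewise, while those of the remaining members overlapped between WT and the Dkk3-null libraries. No share over all genes was computed for this ratio, and it carries no test.

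**Figure D4:**
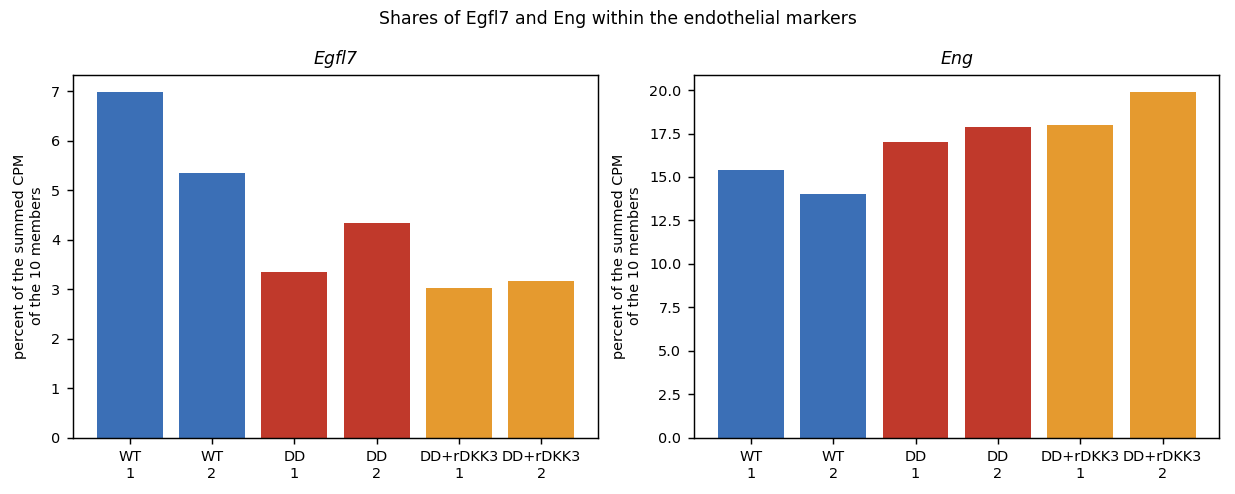
Share of Egfl7 (left) and Eng (right) in the summed CPM of the 10 endothelial markers, in percent, 1 bar per library and axes from 0. Egfl7 is 5.35% to 6.99% in WT and 3.02% to 4.33% in the Dkk3-null libraries, and Eng is 14.0% to 15.4% in WT and 17.0% to 19.9% in the Dkk3-null libraries.

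Libraries also differed along gene length. In the tercile of genes with the shortest exons (up to 3073 bases) the first WT library had a median centred log2 CPM of 0.19, and in the tercile with the longest (from 5723 bases) it had -0.22. Over the other libraries the medians of the same terciles ran from -0.09 to 0.04 and from -0.03 to 0.11. Esam and Plvap, at 1920 and 2179 bases of exon, are in the shortest tercile, and Kdr, Flt1, Pecam1 and Eng, at 6093 to 11112 bases, are in the longest. With each library's length trend removed, a step added after the values were seen, the log2 fold change of DD against WT was -0.15 for Esam (-0.28 without this step), -0.12 for Flt1 (0.0081), -0.50 for Egfl7 (-0.48), 0.33 for Eng (0.40) and 0.24 for Plvap (0.12).

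The pathways around the members were read from 6 lists of other endothelial and angiogenic genes, 79 in all, of which 71 were tested and Gdf2, Bmp10 and Sele were at 0 in every library. By edgeR 0 of the 71 were called in each contrast, and limma-voom, and DESeq2 where it gave an adjusted p, also called 0. In DD against WT 45 were positive and 26 negative, with a median of 0.14 on the log2 scale, and 7 had an unadjusted p under 0.05, of which 6 were higher, where 8.26% of all genes had one. In DD + rDKK3 against DD 34 were positive and 37 negative, with 0 at an unadjusted p under 0.05, against 1.98% of all genes. In DD + rDKK3 against WT 42 were positive and 29 negative, and 5 had an unadjusted p under 0.05, all higher, where 15.3% of all genes had one.

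Among the ligands, Vegfa, the main VEGF, was at 50.2 and 79.4 CPM in WT, 77.2 and 68.9 in DD and, with rDKK3 added, 78.8 and 76.3. Like Kdr, it was low in the first WT library alone, and its log2 fold change of DD against WT was 0.17 (SE 0.22, adjusted p = 0.772, edgeR). Nrp1, the VEGF co-receptor, lay between 30.8 and 40.0 CPM in all libraries. Angpt2, the TIE2 ligand stored by endothelium, lay between 2.46 and 6.39 CPM. Tie1, the orphan relative of TIE2, was at 6.78 and 11.2 CPM in WT, 7.57 and 11.2 in DD and, with rDKK3 added, 8.50 and 11.6, higher in the second library of each group as Tek was.

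Downstream of endoglin and BMP receptors, Id1, an early target gene, was at 87.6 and 69.6 CPM in WT, 87.7 and 162 in DD and, with rDKK3 added, 86.8 and 140. The second Dkk3-null libraries held the high values, which are those with the high fibroblast sums. Id1 is not restricted to endothelium, and the part of other cells was not tested. Id3 followed with 43.9 to 92.7 CPM. Among transcription factors, Klf4, which flow induces in endothelium and which epithelia also express, was at 21.8 and 14.4 CPM in WT and 27.4 and 53.3 in DD. With rDKK3 added, the first library lay within the WT range and the second held 47.1 CPM, so that its high values too were in the libraries with the high fibroblast sums. Its log2 fold change of DD against WT was 1.16 (SE 0.458), with an unadjusted p of 0.0364 and an adjusted p of 0.586 in edgeR. Ets1, an ETS factor of endothelium and lymphocytes, was at 21.6 and 27.5 CPM in WT, 32.4 and 34.0 in DD and, with rDKK3 added, 25.7 and 29.2. Its log2 fold change was 0.43 for DD against WT (SE 0.171, edgeR adjusted p = 0.586) and 0.16 for DD + rDKK3 against WT (edgeR adjusted p = 0.643).

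Of the arterial and venous genes, Efnb2, the arterial ephrin, was at 5.30 and 7.09 CPM in WT, 8.85 and 10.5 in DD and, with rDKK3 added, 6.71 and 8.82. Both DD libraries were above both WT libraries, and the log2 fold change of 0.64 (SE 0.249) had an edgeR adjusted p of 0.586. Its venous receptor Ephb4 was at 22.9 to 34.7 CPM over the libraries. The surface genes Cd93 and Podxl lay between 32.5 and 39.4 CPM and between 28.9 and 40.4 CPM, a range of 1.21-fold and 1.40-fold, narrower than that of any member.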

How the data were processed

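RNA of cultured acini was sequenced as 6 strand-specific libraries. The authors aligned paired-end reads with STAR 2.7.9a to GRCm39 and counted exons of the basic GENCODE annotation on the sense strand. Picard 2.19.2, R 4.2.2 and DESeq2 1.38.0 are also named in the submitters' processing notes. The deposited values are raw counts per gene, not normalized. Of 57045 features, 92 spike-in entries, all at 0, were removed. Totals ran from 12018473 to 19750401, and exact Poisson intervals cover counting error only.

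Counts were tested in edgeR 4.0.16 (R 4.3.3): genes passing filterByExpr (minimum count 10), TMM, the quasi-likelihood F-test over all 6 libraries and 3 groups, Benjamini-Hochberg adjustment over 14738 genes, and a threshold of 0.05. SE is the absolute log2 fold change over the square root of F, and 95% intervals use the t distribution with 3 residual and 4.634 prior degrees of freedom. The script was tested on simulated data. Group changes were checked with DESeq2 1.42.0, limma 3.58.1, other scalings, filters, blocks and sets of libraries.

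Lengths are unions of exons in GENCODE M39, restricted to transcripts tagged basic, which was decided after values had been seen. Promoters came from a RefSeq table of GRCm38.p6 and were placed on GRCm39 by exact match. The members and all lists were chosen with earlier results of these data known. The text names all members, the 2 genes of highest mean CPM in each other list, and the 5 genes nearest to the members' mean pattern. Some other genes, such as Notch3, C1qa and Myct1, were named outside this rule. The shares and the promoters shown were chosen after the values were seen.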

Additional observations from a re-analysis of the deposited data

How the results depend on the processing

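With 2 libraries a group, intervals of single members spanned from -1.57 to 1.79 on the log2 scale. In 480 refits of a member in a contrast, crossed blocks apart, 0 gave a call, though 7 by DESeq2 had no adjusted p, and the lowest adjusted p was 0.0613 (Egfl7, DD + rDKK3 against WT, no filter). Of these refits 414 kept the direction and 66 did not. In DD + rDKK3 against WT, Egfl7 stayed negative throughout (-1.04 to -0.70 over the fits leaving out 1 library). In DD against WT the same fits gave -0.99 to -0.072 for Egfl7 and 0.074 to 0.69 for Eng. The causes of the changes below were not tested.

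Genes called numbered 6 in DD against WT, 0 in DD + rDKK3 against DD and 7 in DD + rDKK3 against WT, the order kept here. Without the filter they were 528, 73 and 788, and by DESeq2 80, 5 and 74. In DD + rDKK3 against WT limma-voom gave 3. Leaving out 1 library gave 2 to 6, 0 to 0 and 2 to 9, and leaving out both Dkk3-null libraries numbered 2 gave 14 in DD against WT. In these fits a group of 1 library is assumed to vary like the other groups, and in the last the spread comes from the 2 WT libraries alone. Without the filter 6 and 8 pathway genes were called in the first and last contrast. Leaving out 1 library, the median log2 fold change of the members ran from -0.25 to 0.54, from -0.41 to 0.26 and from -0.18 to 0.53. The level per length was 2.87 CPM per kb with exons of all transcripts against 4.51.

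The titles carry replicate numbers, which the labels tie to no shared animal. Deviations of same-numbered libraries had r of -0.387 between WT and DD, -0.247 between WT and DD + rDKK3 and 0.65 between DD and DD + rDKK3. A replicate block over all 6 libraries called 7, 0 and 5 genes, and 1 within the 4 Dkk3-null libraries called 20, 0 and 15, with 0 members by either. With the WT numbers crossed, added after the values were seen, the block called 296, 29 and 566 genes, 4 and 5 pathway genes in the contrasts with WT, and 1 member in DD + rDKK3 against WT. With the block within the Dkk3-null libraries the log2 fold changes that turned were -0.23 for Pecam1, -0.028 for Cdh5, -0.19 for Flt1, -0.19 for Tek, -0.10 for Emcn and -0.017 for Plvap (DD against WT) and, for DD + rDKK3 against WT, -0.34 for Pecam1, -0.027 for Flt1 and -0.27 for Tek.

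Without both Dkk3-null libraries numbered 2 the log2 fold changes that turned were -0.35 for Pecam1, -0.051 for Cdh5, -0.27 for Flt1, -0.30 for Tek, -0.22 for Emcn and -0.087 for Plvap (DD against WT) and, for DD + rDKK3 against DD, 0.13 for Pecam1, -0.059 for Kdr, 0.16 for Tek and 0.10 for Emcn and, for DD + rDKK3 against WT, -0.22 for Pecam1 and -0.13 for Tek. With the length-trend offset the log2 fold changes that turned were -0.12 for Flt1 (DD against WT) and, for DD + rDKK3 against DD, -0.016 for Kdr and, for DD + rDKK3 against WT, -0.16 for Pecam1, -0.092 for Flt1 and 0.12 for Plvap. With library size alone the log2 fold changes that turned were -0.028 for Kdr (DD + rDKK3 against DD) and, for DD + rDKK3 against WT, 0.062 for Emcn and 0.10 for Plvap. Leaving out 1 library at a time, the members whose direction turned ranged in DD against WT from -0.35 to 0.63 for Pecam1, -0.075 to 0.82 for Cdh5, -0.072 to 0.97 for Kdr, -0.30 to 0.44 for Flt1, -0.30 to 1.22 for Tek, -0.22 to 0.35 for Emcn, -0.12 to 0.45 for Plvap and -0.70 to 0.077 for Esam. For DD + rDKK3 against DD they ranged from -0.56 to 0.35 for Pecam1, -0.19 to 0.44 for Cdh5, -0.032 to 0.036 for Kdr, -0.11 to 0.43 for Flt1, -0.66 to 0.64 for Tek, -0.22 to 0.40 for Eng, -0.44 to 0.13 for Emcn, -0.38 to 0.043 for Plvap, -0.62 to 0.16 for Esam and -0.79 to 0.13 for Egfl7. Those of DD + rDKK3 against WT ranged from -0.31 to 0.48 for Pecam1, -0.055 to 0.99 for Kdr, -0.15 to 0.59 for Flt1, -0.13 to 1.09 for Tek, -0.20 to 0.062 for Emcn and -0.28 to 0.28 for Plvap.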

Other observations

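The genes nearest to the members' mean pattern over the 6 libraries, by mean absolute difference of centred log2 CPM among 11856 candidates, were Smc4 (0.0403), Hpgd (0.0428), Haus3 (0.043), Nck1 (0.0459) and Xdh (0.0582). Smc4 and Haus3 serve chromosome condensation and the spindle, Hpgd and Xdh are metabolic enzymes, and Nck1 is a signalling adaptor. Smc4 was at 7.76 and 12.6 CPM in WT, 8.52 and 12.3 in DD and, with rDKK3 added, 8.61 and 11.3. The endothelial genes Myct1 and Tie1 came next, at ranks 6 and 7, and were named after their ranks were seen. Of the members themselves, Plvap (0.0825) and Pecam1 (0.0881) lay nearest to the mean pattern and Egfl7 (0.345) and Tek (0.261) farthest. The points share the 6 libraries, and the distances are a description with no test.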
